A study of Mus musculus with 2 samples.

Results

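Interferon-stimulated genes were followed in tumor endothelial cells as a list of 49 mouse symbols, chosen by name. The list and its groups were chosen with earlier results of these data known. Of these, 48 had a row in both libraries among the 31055 features counted, and Mx2 was not analysed here. Blood endothelial cells (BECs) had been sorted from orthotopic tumors of wild-type female C57BL6 mice, 6 weeks of age, at day 10 after 100000 PyMT (breast) or KPC (pancreas) tumor cells were implanted. The sort followed the removal of cells bearing CD45, EpCAM, Ter119, podoplanin or Annexin V. Each tumor model gave 1 droplet-based library, and the number of mice pooled in it is not given in the sources used here. The genotype of the endothelial cells is WT in both libraries and no drug is named for either. Collagenase D was used at 400 U/mL for PyMT tumors and at 500 U/mL for KPC tumors, so that tumor model, organ, digestion and library cannot be told apart. With 1 library per model there is no replicate error and no test. Intervals below are at 95% and cover counting error only, and they are exact but for the difference of a pair of log2 ratios, whose interval is a normal approximation. Those on UMIs treat UMIs as independent and are too narrow where the UMIs of a gene cluster in few cells.

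Interferons are secreted cytokines. Type I and type III interferons act through JAK kinases and a complex with STAT2 and IRF9 at the interferon-stimulated response element (ISRE), whereas type II interferon acts mainly at gamma-activated sites (GAS) and through IRF1. The genes so induced restrict viruses and vacuolar pathogens, and in endothelium the response is known to accompany antigen presentation and the release of chemokines that attract T cells.

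The members were grouped by role. They comprised 4 IFIT genes (Ifit1, Ifit2, Ifit3, Ifit3b), which bind foreign RNA, and 5 OAS genes (Oas1a, Oas2, Oas3, Oasl1, Oasl2), which sense double-stranded RNA or derive from such sensors. The ISG15 system was held by 2 genes, Isg15, a ubiquitin-like modifier, and Usp18, which removes it. There were 3 RNA sensors (Ifih1, Ddx58, Dhx58) and 4 transcription factors (Irf1, Irf7, Irf9, Stat2). A further 12 genes were other antiviral effectors, among them Rsad2 (viperin), Bst2 (tetherin) and Ifitm3, which blocks viral entry. A set of 6 genes encoded PARP, ubiquitin and nuclear proteins (Parp9, Parp14, Dtx3l, Trim30a, Sp100, Ifi35). The last 12 genes encoded interferon-induced GTPases, 6 guanylate-binding proteins (GBPs: Gbp2 to Gbp7) and 6 immunity-related GTPases (IRGs: Igtp, Irgm1, Irgm2, Iigp1, Tgtp2, Ifi47), which take part in defense against pathogens held in vacuoles. The 7 genes Ifit1, Ifit2, Ifit3, Ifit3b, Isg15, Rsad2 and Usp18 are called the interferon core below.

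Promoters of the members were read from RefSeq (GRCm38.p6), as 250 bases before to 50 bases after each start and are shown for core and GTPase genes, on whose levels the comparisons below turn. Of the 48 members, 37 had an entry. Usp18, Oas2, Mx1, Dhx58, Rtp4, Parp14, Parp9, Zbp1, Gbp4, Gbp6 and Iigp1 had none. The ISRE letters GAAANNGAAA, searched on both strands and free to overlap other matches, were present in 22 of the 37 members (59.5%), against 3.99% of all 27025 genes with an entry. The GAS letters TTCNNNGAA were present in 12 of 37 (32.4%), against 9.55% of all genes. ISRE letters were found for 4 of 4 GBPs and 4 of 5 IRGs with an entry, and GAS letters for 2 and 3 of these. A match describes letters in a window and is not a site of binding. Among the 6 core genes with an entry, ISRE letters were found for 5, whereas Ifit2 held GAS letters and no ISRE letters. The first windows shown belong to the core genes Ifit1, Isg15 and Rsad2 and hold 1 to 3 ISRE matches and no GAS match. Each is written 5′ to 3′ on the strand of its gene, upstream of the start, with matched letters of either strand in capitals.
Ifit1 (chr19:34640739-34640870, plus strand): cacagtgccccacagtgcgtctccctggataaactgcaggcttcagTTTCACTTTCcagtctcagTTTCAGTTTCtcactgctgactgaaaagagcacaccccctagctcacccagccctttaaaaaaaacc
Isg15 (chr4:156200819-156200968, minus strand): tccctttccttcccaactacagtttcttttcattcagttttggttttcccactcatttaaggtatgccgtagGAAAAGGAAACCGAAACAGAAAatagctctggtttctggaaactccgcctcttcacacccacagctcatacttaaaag
Rsad2 (chr12:26456453-26456602, minus strand): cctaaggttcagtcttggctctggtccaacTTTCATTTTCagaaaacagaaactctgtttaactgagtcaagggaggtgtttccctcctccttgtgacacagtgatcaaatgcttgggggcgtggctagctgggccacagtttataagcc
The second set belongs to GTPase genes and to Irf1. In Igtp, Irgm2 and Tgtp2 a GAS match lay 2 bases before an ISRE match, in Gbp7 both kinds were present, in Gbp3 overlapping ISRE matches were present without GAS, and in Irf1, of whose promoter entries the one with a match is shown, GAS alone was present.
Gbp3 (chr3:142559894-142560025, plus strand): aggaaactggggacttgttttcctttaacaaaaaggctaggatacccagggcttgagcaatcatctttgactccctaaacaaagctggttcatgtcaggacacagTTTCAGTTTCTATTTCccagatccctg
Gbp7 (chr3:142530186-142530335, plus strand): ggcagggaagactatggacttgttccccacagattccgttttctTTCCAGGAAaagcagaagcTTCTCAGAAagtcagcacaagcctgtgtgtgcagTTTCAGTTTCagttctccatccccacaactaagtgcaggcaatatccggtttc
Igtp (chr11:58199406-58199555, plus strand): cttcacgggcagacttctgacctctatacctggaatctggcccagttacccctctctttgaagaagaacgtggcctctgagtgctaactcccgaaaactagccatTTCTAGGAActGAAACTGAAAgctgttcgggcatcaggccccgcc
Irgm2 (chr11:58214827-58214976, plus strand): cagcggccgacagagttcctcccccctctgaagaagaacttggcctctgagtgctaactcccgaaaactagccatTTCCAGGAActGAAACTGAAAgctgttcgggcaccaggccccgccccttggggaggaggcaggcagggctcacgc
Tgtp2 (chr11:49064213-49064362, minus strand): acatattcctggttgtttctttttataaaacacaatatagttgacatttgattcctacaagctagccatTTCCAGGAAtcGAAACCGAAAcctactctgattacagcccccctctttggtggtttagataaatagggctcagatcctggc
Irf1 (chr11:53769864-53770013, plus strand): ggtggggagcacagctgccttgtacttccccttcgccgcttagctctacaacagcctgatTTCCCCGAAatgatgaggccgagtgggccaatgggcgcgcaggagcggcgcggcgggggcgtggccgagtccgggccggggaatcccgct

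The KPC library held 44441942 UMIs (unique molecular identifiers, each counting 1 captured RNA molecule) in 10236 barcodes and the PyMT library 55547926 in 12464. Barcodes were kept from 500 detected genes upward where mitochondrial UMIs stayed under 10%, which left 9591 and 11744, with medians of 3141 and 3978 UMIs. The libraries shared 170 barcodes. Cells were put into classes by marker UMIs: venule (640 KPC and 360 PyMT cells), artery (105 and 126), tip (1302 and 1991), capillary (1297 and 2597), lymphatic (802 and 633) and an unassigned class called other (4089 and 5603), besides pericyte, fibroblast and Krt8/Krt18 classes. No interferon gene entered these rules. Summed over each list, markers that the rules did not use were highest in the venule, artery, tip and lymphatic classes as named, in both libraries. Single markers did not all follow. Lrg1 and Il6st led in venule cells among the 6 classes, whereas Vwf was higher in artery and Nr2f2 in lymphatic cells of both libraries. Of the tip markers, Esm1 was highest in tip cells of both libraries and Nid2 in those of KPC, and Kcne3 and Cxcr4 were highest elsewhere. For the capillary class this held in KPC, where Gpihbp1, Rgcc, Cd36 and Aqp7 summed to 3232 CPM (counts scaled to 1000000 UMIs of the class), against 2015 in tip and 1877 in other cells. In PyMT the same genes stood at 2058 CPM in the capillary class, 2102 in tip and 2004 in other. By this sum the name stands there for its rule (Car4 and Cd300lg) alone. Singly, Cd36 (321 CPM) and Aqp7 (6.14) were higher there than in tip (167 and 0.61) and other cells (171 and 1.93), whereas Gpihbp1 was lower. Neither Cd36 nor Aqp7 was highest there, with Cd36 at 400 CPM in venule and Aqp7 at 6.15 in artery cells. Depth differed in this class, at a median of 1879 UMIs per cell in KPC and 4254 in PyMT. Lymphatic cells were present although podoplanin-bearing cells had been depleted.

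Interferon-stimulated genes were measured in every endothelial class, and 1 gene, Ifitm3, held more of their UMIs than the other members together in each of the 6 classes. The 48 members took up 0.513% of the UMIs of the KPC library and 0.537% of those of PyMT. In KPC, Ifitm3 stood at 5141 CPM in venule, 3348 in artery, 3126 in tip, 3983 in capillary, 3905 in other and 4589 in lymphatic cells. In PyMT it stood at 4733, 3656, 2757, 3442, 3097 and 4561 CPM in the same order. The venule class was thus highest and the tip class lowest in both libraries. Cells thinned to 2000 UMIs each had at least 1 Ifitm3 UMI in 97.2% to 100% of cases in every class. Bst2, which tethers budding virions to the membrane, came next and was even across classes, between 501 CPM in KPC artery and 665 in KPC tip, and between 518 and 675 CPM in PyMT. Isg15 ranged from 126 to 201 CPM in KPC and from 124 to 236 in PyMT, with artery at the top in both. Iigp1, an effector IRG, was far more uneven. It ranged from 80.7 CPM in tip to 305 in venule in KPC, and from 58.7 in tip to 265 in venule in PyMT. Of the other most abundant members, Rtp4, a chaperone of receptors, stood at 60.2 to 210.5 CPM in KPC and 84.3 to 191 in PyMT, and was lowest in lymphatic cells in both libraries. Irf7, which drives interferon and interferon-induced genes, stood at 54.0 to 131 CPM in KPC and 60.2 to 164 in PyMT. Ifi44 stood at 58.7 to 133 CPM in KPC and 53.7 to 100.1 in PyMT. Ifi35 stood at 95.9 to 202 CPM in KPC and 84.7 to 131 in PyMT. Lgals3bp, a secreted glycoprotein, differed widely by class, at 198 CPM in artery and 14 in venule cells in KPC, and at 180.5 and 30.0 in PyMT.

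The libraries were compared class by class as log2 ratios of CPM, PyMT over KPC, for features at a mean of at least 5 CPM and 20 UMIs. A feature was called when its log2 ratio was past 1 or -1 and its counting interval did not hold 0. Members were lower in PyMT in the capillary class and higher in the lymphatic class, and the other classes lay between. In the capillary class, 44 members had a median log2 ratio of -0.60, against -0.15 for all features tested, and 9 were called lower (9.73% of all features were) and 0 higher (2.65%). In the lymphatic class, 41 members had a median of 0.41, against -0.05, and 9 were called higher (1.48%) and 0 lower (1.69%). In the other class the median of 41 members was -0.30, against -0.15, with 1 member called higher (1.84%) and 2 lower (7.20%). In the tip class it was -0.24 over 41 members, against -0.08, with 1 higher (1.01%) and 0 lower (3.07%). In the venule class it was -0.05 over 44 members, against -0.03, with 2 higher (1.88%) and 0 lower (2.91%). In the artery class, the smallest, it was 0.23 over 33 members, against -0.09, with 5 higher (1.96%) and 0 lower (5.25%). Of the 48 members, 33 could be tested in all 6 classes, 11 in some and 4 in none. Gbp5 and Tgtp2, both called lower in capillary cells, were under 5 CPM there in PyMT and passed the filter through KPC, where they were higher. At least 5 CPM was then required in each library, a setting chosen after seeing the data. With it, 7 of 41 members were called lower in the capillary class (7.52% of features), and the median of the 41 was -0.58. The counts of the other 5 classes were the same. In artery, tip, other and lymphatic cells the setting left out 0 members, so that the member counts there could not change.

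**Figure D1:**
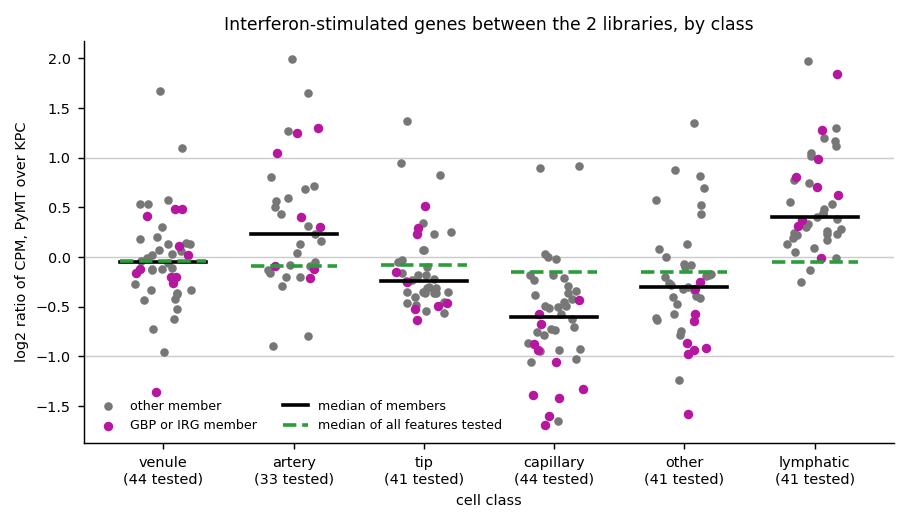
Each point is 1 member, placed by its log2 ratio of CPM, PyMT over KPC, in 6 cell classes (horizontal axis). Black lines are medians of the members and green dashed lines medians of all features tested. The points sit mostly below 0 in the capillary class (member median -0.60), and mostly above 0 in the lymphatic class (0.41).

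The IRGs showed the widest gap in the capillary class. Summed over the class, the 6 IRGs stood at 200 CPM (192 to 207) in PyMT and at 490 (467 to 513) in KPC, a log2 ratio of -1.30 (-1.38 to -1.21), and 4 of the 5 that stood at 5 CPM or more in each library were called lower. Iigp1, the largest part of this sum in each library, stood at 85.3 CPM in PyMT and 258 in KPC (log2 ratio -1.60, interval -1.72 to -1.47). Irgm2 stood at 8.03 and 20.97 CPM (-1.39, -1.83 to -0.94). Ifi47 and Igtp had log2 ratios of -1.33 and -1.06. Irgm1 stood at 39.5 and 53.4 CPM (-0.43, -0.68 to -0.19) and was not called. Tgtp2, which passed the filter through KPC alone, stood at 3.15 and 8.39 CPM (-1.41, -2.13 to -0.68). The GBPs were lower by less, at 183 CPM in PyMT and 316 in KPC (log2 ratio -0.79, -0.90 to -0.69), and 0 of the 4 that stood at 5 CPM or more in each library were called. These, Gbp2, Gbp3, Gbp4 and Gbp7, had log2 ratios between -0.93 and -0.58. Gbp5, which passed the filter through KPC alone, stood at 2.60 CPM in PyMT and 8.39 in KPC (-1.69, -2.45 to -0.93).

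Outside the GTPases, Irf1 was the member that differed most in the capillary class, at 31.5 CPM in PyMT and 99.0 in KPC (log2 ratio -1.65, -1.86 to -1.44). Ifih1, which encodes the RNA sensor MDA5, stood at 21.3 and 44.2 CPM (-1.06, -1.34 to -0.76). Ifi35 stood at 99.3 and 202 CPM (-1.03, -1.16 to -0.89). These were called as well. The remaining transcription factors, Irf7, Irf9 and Stat2, had log2 ratios of -0.78, -0.58 and -0.94, none past -1. The core was lower by less than the GTPases, at 347 CPM in PyMT and 491 in KPC (-0.50, -0.58 to -0.42), and all 7 of its genes had ratios below 0 with none called. Isg15 stood at 148 and 190 CPM (-0.36), Ifit3 at 31.7 and 60.1 (-0.92) and Rsad2 at 66.0 and 102 (-0.62). Ifitm3 was 0.21 lower on the log2 scale. Of the 44 members tested, 37 had an interval wholly below 0, as did 36.0% of all features tested in the class. The highest ratios belonged to Zbp1, a sensor of Z-form nucleic acid, at 22.7 CPM in PyMT and 12.02 in KPC (0.92, 0.45 to 1.42), to Oas1a (0.90, 0.32 to 1.52) and to Dtx3l, a ubiquitin ligase, at 29.4 and 28.8 CPM (0.03, -0.29 to 0.36).

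Other measures moved with the capillary comparison. The 9 pan-endothelial markers (such as Pecam1 and Kdr) summed to 5375 CPM in PyMT and 8158 in KPC. Their log2 ratio was -0.60 (-0.62 to -0.58), smaller than the summed GTPase difference. They did not all fall. Kdr (324 CPM in PyMT and 972 in KPC) and Emcn (943 and 1802) were lower in PyMT. Cdh5 was level (705 and 709 CPM), and Cldn5 was higher in PyMT (336 and 156). The members summed in the same way had a log2 ratio of -0.39, and of -0.62 without Ifitm3. The 4 capillary markers had a log2 ratio of -0.65, and the 10 immune markers stood at 26.3 and 85.6 CPM. The 5 fibroblast markers stood at 16.0 CPM in PyMT and 44.5 in KPC (-1.48, -1.78 to -1.17). The 4 epithelial markers Epcam, Krt19, Krt7 and Cldn4 stood at 0.157 and 22.6 CPM. The part of class makeup and depth in the result was not tested. The summed GTPase ratio of -1.08 (-1.14 to -1.01) was -1.08 without cells that held immune marker UMIs and -0.93 after centring on all features. It was -0.90 with cells thinned to 2000 UMIs and -0.87 with the stricter filter on cells. Thinning left out shallower cells and kept 597 of 1297 KPC and 2367 of 2597 PyMT capillary cells. The stricter filter left 731 and 2210.

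The other class, the largest, showed lower GTPase levels in PyMT as well, whereas its core ratio was above 0. GBPs and IRGs together stood at 342 CPM in PyMT and 629 in KPC (log2 ratio -0.88, -0.93 to -0.83), and all 9 of those tested had ratios below 0. Iigp1 stood at 68.1 and 203 CPM (-1.57, -1.67 to -1.48), and Irf1 at 31.9 and 75.3 (-1.24, -1.39 to -1.09). Both were called lower. Gbp4 had the next ratio, at -0.97. The core instead stood at 385 CPM in PyMT and 341 in KPC (0.18, 0.12 to 0.23). The highest ratios belonged to Oas1a (15.0 and 5.85 CPM, 1.35, 0.97 to 1.76), which was called higher, to Zbp1 (26.7 and 14.5 CPM, 0.88) and to Ifit2 (18.1 and 10.3 CPM, 0.82, 0.51 to 1.13). Here too the pan-endothelial markers summed lower in PyMT (log2 ratio -0.35). Among them Cdh5 (720 CPM in PyMT and 684 in KPC) and Cldn5 (576 and 257) were higher in PyMT. The immune markers stood at 46.4 CPM in PyMT and 177 in KPC. Fibroblast markers stood at 118 and 305 CPM (-1.37, -1.44 to -1.29), and the 4 epithelial markers Epcam, Krt19, Krt7 and Cldn4 at 1.13 and 26.3 CPM. The part of these in the result was not tested.

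In lymphatic cells the direction was the opposite. The core stood at 462 CPM in PyMT (437 to 489) and 311 in KPC (293 to 330), a log2 ratio of 0.57 (0.45 to 0.69), and GBPs and IRGs together at 615 (586 to 646) and 372 (352 to 392), a log2 ratio of 0.73 (0.62 to 0.83). The 9 members called higher came from 6 role groups. Rsad2 stood at 52.1 CPM in PyMT and 13.3 in KPC (1.97, 1.48 to 2.48), the highest ratio of any member in this class. Gbp4 stood at 37.5 and 10.5 CPM (1.84, 1.28 to 2.43) and Oasl2 at 18.7 and 7.63 (1.30, 0.59 to 2.03). Ifi47 stood at 43.9 and 18.1 CPM (1.28, 0.83 to 1.74). Cmpk2, a nucleotide kinase whose gene adjoins Rsad2, stood at 28.5 and 12.4 CPM (1.20). Ifit2, Oas1a, Trim30a and Zbp1 had log2 ratios of 1.17, 1.12, 1.05 and 1.02. The lowest ratios were those of Ddx58 (-0.25, -0.67 to 0.16), Eif2ak2, the RNA-activated kinase PKR (-0.13, -0.47 to 0.21), and Ifitm3 (-0.01, -0.04 to 0.02), whose intervals all held 0. Intervals wholly above 0 were found for 21 of the 41 members, as for 8.37% of all features tested, with the limit on clustered UMIs given above. In lymphatic cells the median variance over mean was 1.21 for members and 0.994 for all features in PyMT, and 1.15 and 0.999 in KPC. The member intervals are thus more affected than those of most features. Pan-endothelial markers (log2 ratio 0.02) and immune markers (-0.18, -0.47 to 0.11) differed little in this class, and median depth was 3462 UMIs per cell in PyMT and 3497 in KPC. Other lists did differ. Fibroblast markers summed to 362 CPM in PyMT and 236 in KPC (0.62, 0.49 to 0.76), a log2 ratio as large as that of the core. That rise was in Dcn alone, at 331 CPM in PyMT and 148 in KPC. Col3a1 (15.0 and 31.4 CPM), Postn (15.7 and 52.0), Lum and Pdgfra were lower in PyMT. Capillary markers stood at 502 and 367 CPM (0.45, 0.34 to 0.56). The lymphatic markers Ccl21a, Lyve1, Flt4 and Pdpn summed to 12870 CPM in PyMT and 15886 in KPC, and the epithelial markers had a log2 ratio of -1.03 (-1.68 to -0.42). The part of these shifts in the result was not tested. The GTPase ratio ranged from 0.65 to 0.83 over 6 other settings for cells and scaling, and the core ratio from 0.32 to 0.62.

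Taking both classes, 18 of the 41 members tested in each had an interval below 0 in capillary and above 0 in lymphatic cells, as had 1.47% of the features tested in both classes. They were Cmpk2, Gbp2, Gbp4, Gbp7, Ifi35, Ifi47, Ifih1, Ifit1, Igtp, Iigp1, Irf7, Irgm1, Isg15, Oasl2, Rsad2, Rtp4, Samd9l and Trim30a. Irf1 was not among them, with a lymphatic ratio of 0.28 (-0.11 to 0.67). The limit on clustered UMIs given above holds for these intervals too. The role groups did not keep one order. By summed levels, the capillary log2 ratio was -1.30 for the IRGs, -0.97 for the transcription factors, -0.79 for the GBPs, -0.76 for the RNA sensors and for the PARP, ubiquitin and nuclear proteins, -0.63 for the IFIT genes, -0.37 for the ISG15 system, -0.24 for the other antiviral effectors, which Ifitm3 dominates, and -0.21 (-0.40 to -0.02) for the OAS genes. Among these the summed IRGs stood clear of the rest, whereas the intervals of the GBPs, sensors and PARP group overlapped. Iigp1 is the largest part of the IRG sum, and the sum without it was not computed, so that this place in the order may rest on 1 gene. In lymphatic cells the OAS genes were at the top, at 40.1 CPM in PyMT and 19.2 in KPC (1.06, 0.61 to 1.52). The GBPs (0.74, 0.58 to 0.90), the IRGs (0.72, 0.58 to 0.86) and the IFIT genes (0.58, 0.36 to 0.80) followed. The intervals of these groups overlapped, so that their order is not resolved. The OAS sum also holds Oas1a, whose counts are uncertain, as given below. The sensors had the lowest lymphatic ratio but for the other antiviral effectors, at 0.19 (-0.09 to 0.47), and the latter stood at 0.04.

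**Figure D2:**
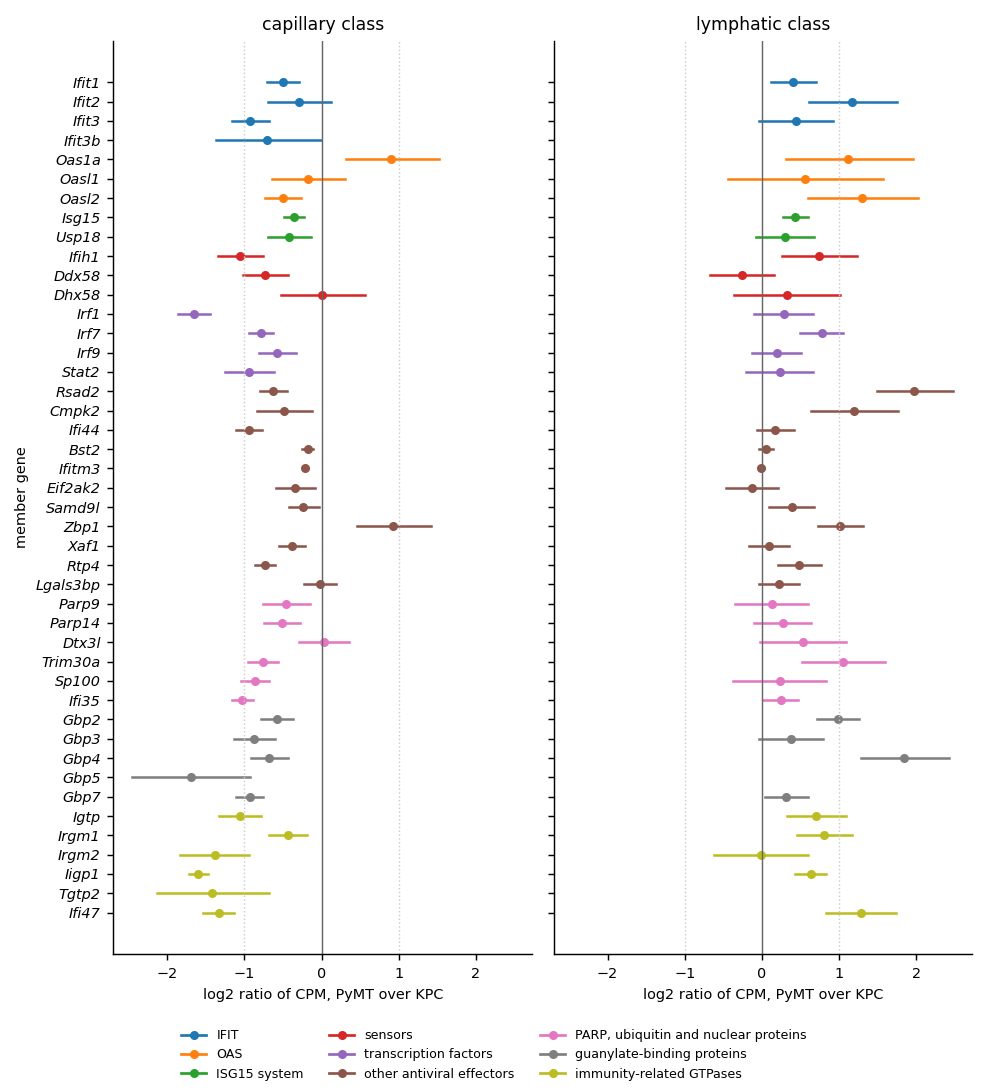
Log2 ratio of CPM, PyMT over KPC, of each member (rows, in color by role) in the capillary class (left) and the lymphatic class (right). Points are ratios and bars exact 95% counting intervals. The IRGs lie between -1.60 and -0.43 on the left, whereas Rsad2 at 1.97 and Gbp4 at 1.84 lie farthest to the right in lymphatic cells.

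In venule, artery and tip cells the member medians lay nearer to 0, between -0.24 and 0.23. Markers shifted in these classes too, and their part was not tested. In tip cells pan-endothelial markers summed had a log2 ratio of -0.25, near the -0.20 of the members summed, and immune markers one of -1.36. Of the pan-endothelial markers, Cldn5 went the other way in tip cells, at 324 CPM in PyMT and 234 in KPC. In venule cells capillary markers stood at 0.37, immune markers at -1.40 and fibroblast markers at -1.31. The venule fibroblast difference was mostly that of Dcn, at 0.67 CPM in PyMT and 32.8 in KPC, with Col3a1 at 17.3 and 17.4. In artery cells capillary markers stood at 0.59 (0.37 to 0.82). In venule cells the called members were Rsad2, at 46.7 CPM in PyMT and 14.7 in KPC (log2 ratio 1.67, 1.10 to 2.25), and Lgals3bp, at 30.0 and 14 CPM (1.10, 0.46 to 1.75). Ifit3b followed at 0.58 with an interval that held 0. Irf1 was low here too, at 36 CPM in PyMT and 70.0 in KPC (-0.96, -1.42 to -0.52), as was Parp9 (-0.73, -1.28 to -0.20). Gbp5 had the lowest venule ratio, at 5 UMIs in PyMT and 25 in KPC (-1.36, -3.10 to 0.05). The venule core ratio of 0.36 became -0.11 (-0.39 to 0.16) without cells that met more than 1 class rule, which removed 189 of the 360 PyMT and 142 of the 640 KPC cells, and the artery core ratio of 0.23 became -0.23 (-0.57 to 0.12). GBPs and IRGs in venule cells stood at 755 CPM in PyMT and 796 in KPC (-0.08, -0.18 to 0.03).

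In artery cells, of which there were few, Oas1a (18 UMIs in PyMT and 3 in KPC), Zbp1 (19 and 4), Gbp3 (26 and 7), Oasl2 (29 and 8) and Gbp2 (50 and 14) were called higher in PyMT, with log2 ratios of 1.99, 1.66, 1.30, 1.27 and 1.24. With so few UMIs the intervals were wide, from 0.22 to 4.40 for Oas1a and from 0.06 to 2.75 for Gbp3. GBPs and IRGs together stood at 586 CPM in PyMT and 436 in KPC (0.43, 0.13 to 0.73), a log2 ratio that became 0.94 with the stricter filter on cells and 1.07 with cells thinned. The lowest ratios were those of Irf1 (-0.90), Trim30a (-0.80) and Irf9 (-0.29), all with intervals that held 0. In tip cells Oas1a was called higher, at 13.7 CPM in PyMT and 5.31 in KPC (1.37, 0.89 to 1.87), followed by Lgals3bp (0.95) and Zbp1 (0.82). Irgm2 (-0.64), Ifit3 (-0.56) and Irf1 (-0.55) had the lowest ratios there. Across the 6 classes, Zbp1 and Oas1a had ratios above 0 in every class, that of Oas1a past 1 in 4 of them, and Irf1 had a ratio below 0 in 5 of 6.

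The order of the classes, as the rules define them, therefore differed between the libraries for the GTPases. The capillary class may hold unlike cells in the 2 libraries. Capillary markers that the rule did not use stood there at 2058 CPM in PyMT and 3232 in KPC. Median depth was 4254 and 1879 UMIs per cell in the same order. The part of this in the ratios below was not tested. In PyMT, GBPs and IRGs were higher in venule than in capillary cells by a log2 ratio of 0.98 (0.89 to 1.08), whereas in KPC the ratio was -0.02 (-0.10 to 0.06). The difference of these ratios was 1.002 (0.88 to 1.12). For Iigp1 the venule over capillary ratio was 1.63 in PyMT and 0.24 in KPC. For the core it was 0.00 in PyMT and -0.86 in KPC. Lymphatic over capillary, GBPs and IRGs stood at a log2 ratio of 0.69 in PyMT and -1.12 in KPC. Rsad2 was spread more widely across the KPC classes than across those of PyMT, from 13.3 CPM in lymphatic and 14.7 in venule to 102 in capillary cells, against 46.7 to 76.9 CPM across the PyMT classes.

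**Figure D3:**
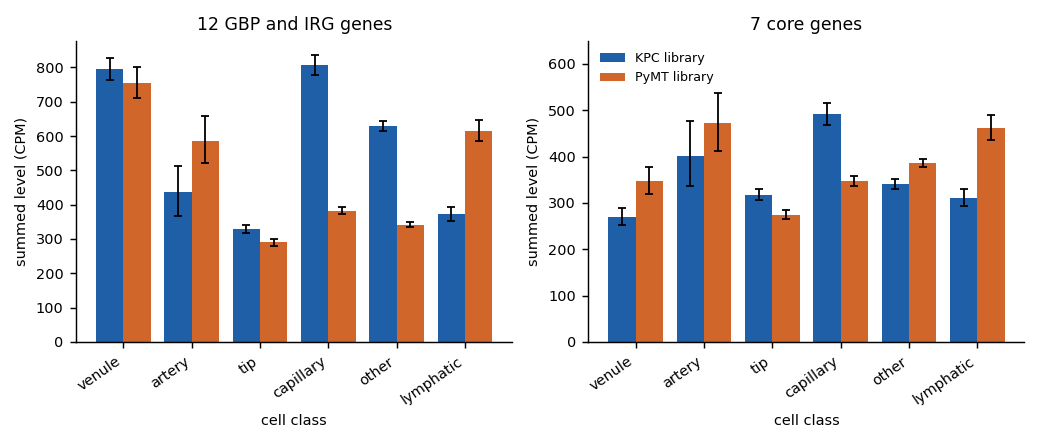
Summed level, in CPM, of the 12 GBP and IRG genes (left) and of the 7 core genes (right) in 6 cell classes of the KPC (blue) and PyMT (orange) libraries, with exact 95% Poisson intervals as bars. Among the GTPases, capillary cells stood at 806 CPM in KPC and 382 in PyMT, and lymphatic cells at 372 and 615.

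Some class differences were shared by both libraries. Tip cells were lower in most interferon-stimulated genes. Against the other 5 classes summed, 28 of the 41 members tested in tip cells had an interval below 0 in both libraries, as had 16.3% of all features, and 0 members had one above 0 in both (13.7% of features). They included the GTPases Gbp2, Gbp3, Gbp4, Gbp7, Ifi47, Igtp, Iigp1, Irgm1 and Irgm2, the factors Irf1, Irf7 and Stat2, the core genes Ifit1 and Isg15, and Ifitm3. Tip cells were also the deepest of the 6 classes, with medians of 5449.5 UMIs in KPC and 5845 in PyMT, and the part of depth was not tested. Venule cells had 10 of 44 members above the other classes in both libraries (5.98% of features), with Gbp2, Gbp3, Gbp4, Igtp, Iigp1 and Ifi47 among them besides Ddx58, Ifitm3, Parp14 and Rtp4, and 4 below (5.69%), namely Cmpk2, Lgals3bp, Rsad2 and Xaf1. Artery cells had 3 of 33 above (9.79%), namely Ifit1, Isg15 and Lgals3bp, and 0 below (6.39%). Capillary cells had 8 of 44 above (5.51%), including Gbp4, Gbp7, Samd9l, Sp100 and Trim30a, and 1 below (5.64%), Zbp1. Other cells had 4 of 41 above (6.57%), namely Ifih1, Irf7, Oasl2 and Xaf1, and 1 below (9.15%), Bst2. Lymphatic cells had 5 of 41 above (19.4%), namely Eif2ak2, Ifitm3, Isg15, Lgals3bp and Zbp1, and 5 below (11.4%), namely Oasl2, Rsad2, Rtp4, Sp100 and Trim30a. The members' share was thus below that of all features for artery and lymphatic cells above the others, and close to it for lymphatic cells below them.

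Member UMIs were spread unevenly over the cells of a class. With each cell thinned at random to 2000 UMIs and shallower cells left out, the share of cells with at least 3 core UMIs lay between 4.32% (KPC venule) and 8.42% (PyMT venule) in the 6 classes. In capillary cells it was 8.38% in KPC (50 of 597 cells, Clopper-Pearson interval 6.28 to 10.9) and 6.21% in PyMT (147 of 2367, 5.27 to 7.26). Thinning left out 700 of the KPC and 230 of the PyMT capillary cells. The Krt8/Krt18 cells, which lie outside the endothelium, gave 0.508% in KPC and 2.92% in PyMT at the same depth, and 0.635% and 1.33% for the GTPases, as a background from cells of another kind. For the GTPases, capillary cells with at least 3 UMIs made up 20.8% in KPC (17.6 to 24.2) and 7.48% in PyMT (6.45 to 8.61), lymphatic cells 8.62% (6.52 to 11.1) and 14.5% (11.5 to 17.96), and venule cells 22.1% (18.7 to 25.9) and 17.9% (13.6 to 22.8). The capillary and lymphatic intervals of the libraries did not overlap, whereas those of venule cells did. These intervals treat the cells of a library as independent and hold no spread between mice. Their overlap or lack of it therefore describes the libraries, and a difference between the tumor models was not tested.

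**Figure D4:**
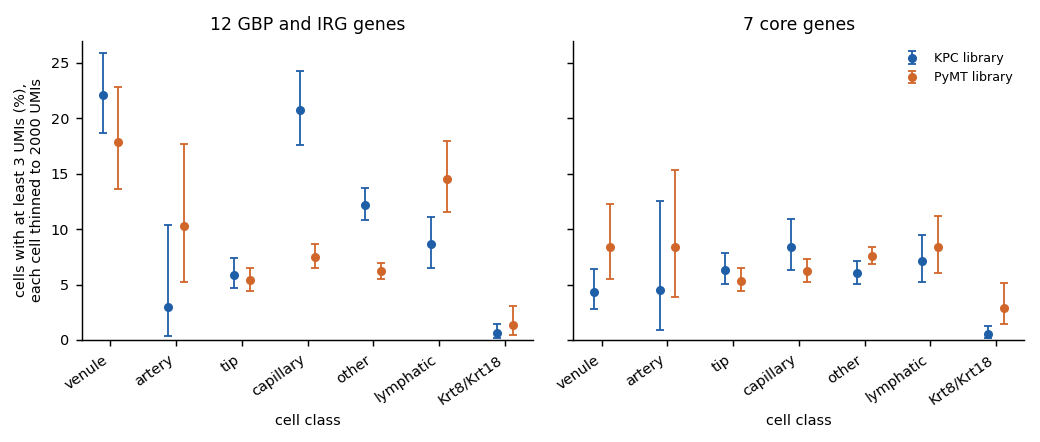
Percent of cells with at least 3 UMIs of the GBP and IRG genes (left) or of the core (right), each cell thinned to 2000 UMIs, by class in the KPC (blue) and PyMT (orange) libraries, with Clopper-Pearson 95% intervals as bars. GTPase shares of capillary cells were 20.8% in KPC and 7.48% in PyMT, and core shares in the 6 classes were at most 8.42%.

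Rsad2 was the most uneven member in venule, tip and capillary cells of KPC and in tip, capillary and other cells of PyMT. Its variance over cells was 6.58 times its mean in KPC tip cells and 4.26 to 4.98 times its mean in the capillary, other and tip cells of PyMT, against a median of 1.01 to 1.02 over all features of those classes. In KPC capillary cells 10.9% had at least 1 Rsad2 UMI after thinning, and in KPC venule cells 1.69%. Bst2, by contrast, was found in 56.4% to 69.4% of the thinned cells of every class.

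Cells with at least 3 core UMIs also held more of the members that the core did not use. Set against cells of the same class with 0 core UMIs, the members outside the core, Ifitm3 left out of the sum, were higher by log2 ratios of 1.39 to 1.96 in KPC and 1.61 to 2.16 in PyMT, over the 5 classes other than artery, where such cells numbered 3 and 9. For GBPs and IRGs the log2 ratios were 1.67 to 2.86 in KPC and 1.80 to 3.02 in PyMT. In PyMT capillary cells, Iigp1 stood at 507 CPM in cells with at least 3 core UMIs and at 53.4 in cells with 0 (log2 ratio 3.25, 2.93 to 3.57), Gbp2 at 248 and 27.3 (3.19) and Irf7 at 306 and 52.8 (2.54). In KPC capillary cells Iigp1 stood at 480 and 193 CPM (1.32, 0.81 to 1.80), Gbp2 at 180 and 50 (1.85) and Irf7 at 370 and 98.5 (1.91). The ratio of immune markers had an interval above 0 in KPC tip cells alone among these 5 classes of each library, where 25 UMIs in 78 cells gave 160 CPM against 29.7 in cells with 0 core UMIs.

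In capillary and other cells, the GTPase ratio between the libraries lay farther from 0 in cells without core UMIs than in cells rich in them, with intervals that did not overlap, whereas in tip, lymphatic and venule cells the intervals overlapped. Capillary cells with 0 core UMIs stood at 257 CPM of GBPs and IRGs in PyMT (240 to 274) and 554 in KPC (500 to 613), a log2 ratio of -1.11 (-1.29 to -0.93). Capillary cells with at least 3 core UMIs stood at 1707 CPM in PyMT (1561 to 1864) and 1760 in KPC (1510 to 2040), a log2 ratio of -0.04 (-0.29 to 0.21). Other cells gave -0.82 (-0.94 to -0.70) and -0.07 (-0.24 to 0.09), and tip cells -0.21 (-0.40 to -0.02) and -0.05 (-0.29 to 0.19), in the same order. In lymphatic cells the log2 ratio was 0.68 (0.41 to 0.95) with 0 core UMIs and 0.08 (-0.26 to 0.42) with at least 3. In venule cells it was -0.18 (-0.40 to 0.05) and -0.49 (-0.87 to -0.11), with 24 PyMT and 23 KPC cells in the upper class. The cells were divided after thinning, so that UMIs per cell were equal, and the rule used no GTPase gene. Thinning left out 700 KPC and 230 PyMT capillary cells, and 1992 KPC and 948 PyMT cells of the other class. The core itself differed between the libraries in both classes. The part of these in the result was not tested, and the intervals count UMIs within 1 library per model.

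**Figure D5:**
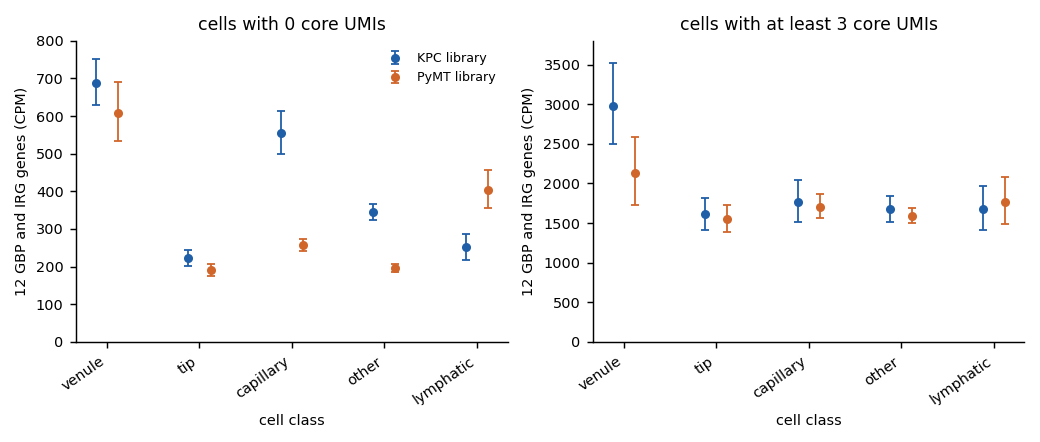
Level of the 12 GBP and IRG genes, in CPM, in cells with 0 core UMIs (left) and with at least 3 (right), by class in the KPC (blue) and PyMT (orange) libraries, with exact 95% Poisson intervals as bars (vertical scales differ). On the left capillary cells stood at 554 CPM in KPC and 257 in PyMT, whereas on the right they stood at 1760 and 1707.

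Other genes of the pathway were listed apart from the members. Interferon transcripts themselves were nearly absent from the 2 libraries. The sorts followed the removal of CD45-bearing cells, so that this does not speak for the whole tumor. Of 20 ligand genes, 14 of them Ifna genes, 2 had any UMI in KPC and 0 had any in PyMT. The 2 were Ifng, with 5 UMIs in 2 cells that also held immune marker UMIs, and Ifne, with 1 UMI. In PyMT, 0 of 11744 cells allows a share of up to about 0.0255% with a UMI. This limit was taken as 3 over the number of cells and is not a Clopper-Pearson limit. Of 6 receptor genes, 5 were tested in each class and 0 were called in any, with Ifngr1 and Ifnar2, subunits of the type II and type I receptors, at log2 ratios of -0.70 and -0.86 in capillary cells. Among the 6 kinases and factors tested in capillary cells, Stat3 alone was called lower there (-1.01), as were 9.73% of all features. It stood at -0.26 in lymphatic cells. Of 3 negative regulators tested, Socs1 and Socs3, feedback inhibitors of JAK kinases, were called lower in capillary cells (log2 ratios of -1.41 and -1.98) and in other cells (-1.31 and -2.04), and Socs3 in tip cells too. The shares of all features called lower were 9.73%, 7.20% and 3.07% in these 3 classes. In lymphatic cells Socs1 stood at 0.95 and Socs3 at -0.89. Of the 6 inducers, among them the adaptors Mavs and Tmem173, 5 were tested in each class but artery, where 2 were, and 0 of those tested were called.

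Among 21 further induced genes, the T cell-attracting chemokines departed from the members in capillary cells. Cxcl9 stood at 43.8 CPM in PyMT and 3.08 in KPC (log2 ratio 3.83, 2.98 to 4.84), and Cxcl10 at 61.2 and 15.9 (1.94, 1.55 to 2.35). In lymphatic cells they had log2 ratios of 2.75 and 2.53. Cxcl9 was under 5 CPM in KPC in both classes and passed the filter through PyMT. Of 17 tested in capillary cells, these were the 2 genes called higher (2.65% of all features were). Another 4 were called lower (9.73% of all features), namely Tap2, Herc6, Trim30d and Ifi213, the last of them under 5 CPM in PyMT. In cells with at least 3 core UMIs, Cxcl10 reached 728 CPM in PyMT capillary cells, against 12.3 in those with 0, and 220 against 10.3 in KPC. Among genes of antigen processing, none of them called higher, Psmb8 had log2 ratios of -0.50 in capillary and 0.76 in lymphatic cells and Tap1 of -0.24 and 0.85.

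Some members were too rare or too similar to other genes to be read. Gbp6, Mx1, Oas2 and Oas3 were tested in none of the classes, with at most 24 UMIs of any of them in 1 of the 6 classes of a library. All 48 members were placed on GRCm38 in GENCODE M21, 10 of them on chromosome 11 (with 5 of the 6 IRGs, Igtp at chr11:58199556-58207591 overlapping the span of Irgm2), 7 on chromosome 5 and 5 on chromosome 3. A counted gene on the same strand overlapped 6 members, so that reads of the overlap are uncertain. They were Igtp and Irgm2 with each other, Gbp4 with Gbp8 and Gbp9, Ifi47 with Olfr56, Irf9 with Rnf31, and Gbp6 with Gm43302. In Tgtp2, 100% of the 50-base stretches in the last 500 bases also occurred in Tgtp1, so that its counts are uncertain. The share was 77.8% for Gbp6, 56.1% for Oas1a (shared with Oas1g), 14.9% for Ifit3 (with Ifit3b) and 13.97% for Ifitm3. The Oas1a differences above are uncertain for this reason. A counted gene on the opposite strand overlapped 12 members, among them Irf1, Irf7, Rtp4 and the pair Parp9 and Dtx3l.

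The summed level of interferon-stimulated genes was lowest in the Krt8/Krt18 cells, where the members summed to 940.2 CPM in KPC and 2633 in PyMT. The core stood there at 31.2 CPM in KPC and 138 in PyMT, and GBPs and IRGs at 60.3 and 122. The cells differed in kind, since Epcam, Krt19, Krt7 and Cldn4 summed to 4451 CPM in KPC and 40.1 in PyMT, so that no ratio between them is read. In fibroblast cells, 443 in KPC and 28 in PyMT, the core stood at 296 CPM in KPC and, on 10 UMIs, at 78.5 in PyMT (37.7 to 144). In pericyte cells, 119 in KPC and 27 in PyMT, the core stood at 460 and 429 CPM.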

How the data were processed

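Endothelial cells sorted from KPC and PyMT tumors were measured by droplet single-cell RNA-seq, 1 library each. The authors aligned the reads to mm10 and deposited raw UMI counts per gene and barcode, made with Cell Ranger (3.0 per the labels, 3.0.2 per the matrix header). The kit version is given as v2 in one place and v3 in another. The sources used here do not state whether empty barcodes or doublets were removed beyond this.

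Barcodes were kept from 500 detected genes upward where mitochondrial UMIs stayed under 10%. Cells were classed in this order by summed UMIs: Krt8 and Krt18 (at least 5), Col1a1 and Col1a2 (fibroblast, 10), Mmrn1 and Prox1 (lymphatic, 3), Notch3 and Higd1b (pericyte, 2), Ackr1 and Selp (venule, 3), Gja5 and Sema3g (artery, 2), Apln and Angpt2 (tip, 3), Car4 and Cd300lg (capillary, 2), and other. Doublets were not called. Leaving out cells that met more than 1 rule, or the deepest 5%, was tried instead. The first of these could not act on the capillary class, which has the last rule, or on the other class, which meets no rule. UMIs were summed per class and library, as counts scaled to 1000000 UMIs of the class (CPM), with exact Poisson intervals, exact conditional binomial intervals for ratios, normal approximations for differences of log2 ratios and Clopper-Pearson intervals for shares, all at 95%. Such intervals treat UMIs as independent and hold no spread between mice. Features at a mean of at least 5 CPM and 20 UMIs were tested for size, and called past a log2 ratio of 1 with an interval clear of 0. For shares of cells, each cell was thinned at random (seed 1) to 2000 UMIs. Other settings were a stricter filter on cells, cells without immune UMIs, equal weight per cell, centring on all features, a log2 threshold of 0.5, no filter on low counts, at least 5 CPM in each library, thinning to 1000 UMIs and a core threshold of 2. Promoters came from RefSeq (GRCm38.p6) and gene positions and shared 3′ sequence from GENCODE M21.

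Named with values were, per class, the 3 members with the highest and the 3 with the lowest ratio, every member called, the 8 most abundant members, those tested in no class, those past a log2 ratio of 1 in at least 4 classes, and members of role groups that a sentence describes. The members and lists were chosen with earlier results of these data known. The scripts for ratios and intervals were tested on simulated counts drawn from the models that the intervals assume. These held no clustering of UMIs in cells, so that the test could not examine it. Python 3.11.15, numpy 2.4.6, scipy 1.17.1 and pandas 2.3.3 were used.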

Additional observations from a re-analysis of the deposited data

Results flagged for a closer look

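For 18 members the ratio between the libraries pointed one way in capillary cells and the other way in lymphatic cells, each with a counting interval clear of 0. The difference was not tested, since each tumor model had 1 library. The lymphatic log2 ratio less the capillary one was 2.22 for Iigp1, 2.61 for Ifi47, 1.77 for Igtp and 1.24 for Irgm1 among the immunity-related GTPases. It was 2.52 for Gbp4, 1.57 for Gbp2 and 1.25 for Gbp7 among the guanylate-binding proteins. Among genes for antiviral effectors and RNA sensors it was 2.60 for Rsad2, 1.68 for Cmpk2, 1.80 for Ifih1, 1.79 for Oasl2, 1.22 for Rtp4 and 0.62 for Samd9l. The core genes Ifit1 and Isg15 had 0.91 and 0.79. Trim30a, Irf7 and Ifi35 had 1.81, 1.56 and 1.27.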

How the results depend on the processing

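No paired analysis was possible because each tumor model had 1 library. For the same reason no replicate could be left out. The alternatives without Ifitm3 and with cells thinned to 2000 UMIs for sums and counts, and with at least 5 CPM in each library, were chosen after seeing the data. The log2 ratio of all members summed was -0.11 in venule, 0.20 in artery, -0.20 in tip, -0.39 in capillary, -0.33 in other and 0.13 in lymphatic cells. Of 54 alternative values for it, 28 moved by less than the counting interval of the ratio and 26 by more, none with a change of sign. The 28 include values that could not move. Leaving out cells that met more than 1 rule removed no capillary or other cell, and leaving out cells with immune UMIs removed no artery cell. Where the cause of a shift is not plain from the setting, the cause was not tested.

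With a stricter filter on cells the summed ratio was 0.38 in artery, -0.31 in capillary and -0.27 in other cells. Without the deepest cells it was -0.25 in tip, -0.45 in capillary and -0.36 in other cells. With equal weight per cell it was -0.25 in tip, -0.48 in capillary, -0.40 in other and 0.17 in lymphatic cells. Centred on all features it was -0.077 in venule, 0.29 in artery, -0.13 in tip, -0.24 in capillary, -0.18 in other and 0.18 in lymphatic cells. Without Ifitm3 it was 0.30 in artery, -0.23 in tip, -0.62 in capillary and 0.39 in lymphatic cells. With cells thinned it was -0.15 in venule, 0.35 in artery, -0.25 in tip, -0.34 in capillary, -0.24 in other and 0.080 in lymphatic cells.

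Among alternative counts of called members, 74 stayed within 1.5 times the reported count and 22 did not. The 74 likewise include counts that could not move, in the same settings and classes. Requiring at least 5 CPM in each library left out 0 members in artery, tip, other and lymphatic cells, so that it could not move their counts. At a log2 threshold of 0.5, the count lower in PyMT was 3 in venule, 4 in tip, 26 in capillary and 13 in other cells, and the count higher was 4 in tip, 2 in capillary, 6 in other and 15 in lymphatic cells. The share of all features called was not computed for the settings of this paragraph, so that these counts are not read as a result about the members. At the main filter, the lower quartile of all features was -0.52 in capillary cells, and the upper quartile was 0.15 in lymphatic cells. With cells thinned, the count higher was 1 in venule, 3 in artery and 0 in other cells, and the count lower was 1 each in venule, tip and other cells. Centring gave 2 higher in tip, capillary and other cells. Without cells that met more than 1 rule, 3 were higher in artery and 2 in tip cells. In other cells the stricter filter gave 2 higher and 1 lower, and no filter on low counts gave 2 higher.

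The share of cells with core UMIs followed depth and threshold. In KPC, thinning to 1000 UMIs gave 2.07% in venule, 2.54% in tip, 4.65% in capillary, 3.26% in other and 3.84% in lymphatic cells, no thinning gave 13.1%, 17.6%, 15.0%, 10.0% and 14.5%, and a threshold of 2 gave 12.2%, 11.2%, 18.3%, 12.4% and 11.7%. In PyMT, thinning to 1000 UMIs gave 3.42% in venule, 2.61% in tip, 3.08% in capillary and 4.15% in other cells. No thinning gave 13.3% in venule, 17.5% in artery, 15.0% in tip, 13.7% in capillary, 12.3% in other and 18.3% in lymphatic cells of PyMT. A threshold of 2 gave 13.0%, 9.63%, 11.2%, 12.5% and 16.2% in venule, tip, capillary, other and lymphatic cells of PyMT.

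With 1 library per model, no value here separates tumor model from mouse, organ, digestion or library. Artery cells, 105 and 126 in number, and members under 20 UMIs limit what can be read.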
